A study of Caenorhabditis elegans with 6 samples.

Results

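The genes described here are 10 cuticle collagens of *Caenorhabditis elegans* that are named for what their mutation does to the shape of the animal: *dpy-4*, *dpy-5*, *dpy-13* and *dpy-17* (dumpy, short and fat), *rol-6*, *sqt-1* and *sqt-3* (roller and squat), *bli-1* and *bli-2* (blistered cuticle) and *lon-3* (long). They were chosen by symbol, without the collagens that build the circumferential furrows of the cuticle, and all 10 had a row among the 20447 genes counted. Poly(A)+ RNA came from wild-type worms (strain N2) and from worms carrying *ebax-1(tm2321)*, a null allele of the worm counterpart of ZSWIM8, which recruits substrates to a ubiquitin ligase and marks some microRNAs for decay. Larvae of the L1 stage, the one that hatches from the egg, were kept overnight without food before collection and gave 2 libraries of wild type and 2 of the mutant strain CZ9907. Gravid adults, grown at 20 °C for about 68 h with food, gave 1 library of wild type and 1 of the mutant strain FX02321. Mutant strain and stage therefore differ together, and wild type and mutant differ by strain as well as by allele, since the study points to a further mutation at another site in the *tm2321* line.

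The cuticle is the collagen-rich coat that the epidermis secretes before hatching and again before each molt. Its collagens are short proteins with Gly-X-Y repeats. They are hydroxylated on proline and assembled into trimers in the endoplasmic reticulum, cut by proteases, secreted, and cross-linked through tyrosines. Each cuticle is made from its own set of collagen genes, switched on in waves, and the adult cuticle alone has struts, pillars that contain BLI-1 and BLI-2 and join its inner and outer layers.

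Values are read counts over coding sequence, or CPM, the same counts scaled to library size with TMM factors, which set the bulk of genes equal between libraries. Library totals ran from 10937932 to 21328335 counts. The targeted gene *ebax-1* stood at 75.02 ± 1.43 CPM in wild-type and 43.5 ± 3.84 CPM in mutant larvae (SD, n = 2). Its log2 fold change was -0.79 (edgeR adjusted p = 5.07e-06), and it had 1051 counts in the wild-type and 275 in the mutant adult. Stage markers stood with the labels: the 4 yolk genes summed to between 2.14 and 3.08 CPM in the L1 libraries and to 37272 and 41851 CPM in the adult libraries. Of 10 maternal germline and embryo markers, 9 rose in mutant L1 larvae (8 by DESeq2), where 6.59% of all genes tested were called higher. Their sum was 102 and 105 CPM in wild type and 240 and 187 CPM in the mutant. The epidermal markers, the tissue that makes the cuticle, had 0 of 7 called in L1 larvae (0 at an unadjusted p under 0.05 and 0 by DESeq2). Of all genes tested, 6.59% were called higher and 9.97% lower. The epidermal sums lay between 198 and 208 CPM in the L1 libraries. In bulk RNA, fewer epidermal cells and less RNA per cell cannot be told apart.

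The collagens fell into a pair that starved L1 larvae contained in quantity, *dpy-17* and *sqt-3*, and 8 genes that were close to absent at that stage and abundant in adults. Across the 4 L1 libraries, *dpy-17* and *sqt-3* together made up 97.5% to 98.4% of the collagens' summed level per kilobase of coding sequence. They made up 18% of it in the wild-type adult and 33.7% in the mutant adult. The other 8 genes had at most 32 counts in any L1 library and at least 348 counts in either adult library.

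**Figure D1:**
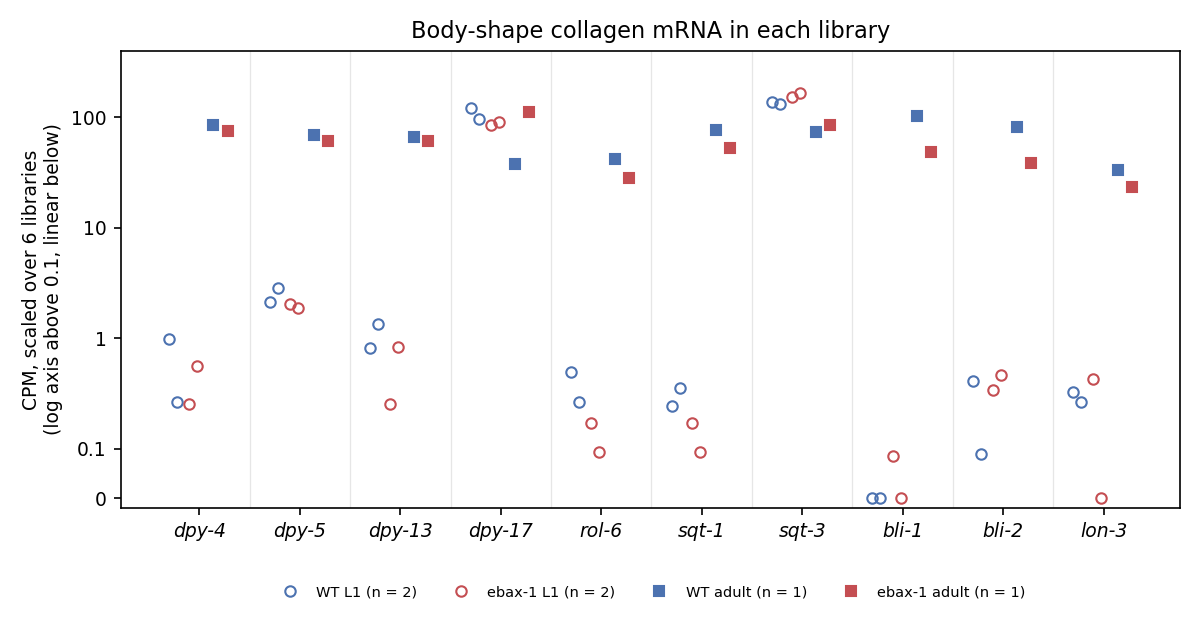
CPM of each collagen in each library, scaled over all 6 libraries (log axis above 0.1, linear below); open circles are the 2 L1 libraries of a genotype and squares the single adult library. Only *dpy-17* and *sqt-3* lie above 80 CPM in L1 larvae, and *dpy-17* is the only gene whose mutant adult stands far above the wild-type adult (111 against 37.4 CPM).

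The dumpy genes *dpy-4*, *dpy-5* and *dpy-13* encode cuticle collagens whose loss shortens the body. *dpy-4* (WBGene00001066, WBcel235 chromosome IV, 14985543 to 14986784, minus strand) had 12 and 3 counts in wild-type L1 larvae, 3 and 6 in mutant L1 larvae, 1956 in the wild-type adult and 1131 in the mutant adult. *dpy-5* (WBGene00001067, chromosome I, 5432197 to 5433051, minus strand) had 26 and 32 counts in wild-type L1, 24 and 20 in mutant L1, 1614 in the wild-type adult and 921 in the mutant adult. *dpy-13* (WBGene00001074, chromosome IV, 4235614 to 4236710, plus strand) had 10 and 15 counts in wild-type L1, 3 and 9 in mutant L1, 1551 in the wild-type adult and 912 in the mutant adult. All 3 were low in every L1 library and high in both adults, and *dpy-5* was the highest of the 8 adult-abundant genes in L1 larvae. After scaling over the 6 libraries, the wild-type adult exceeded wild-type L1 larvae 132-fold for *dpy-4* (95% exact binomial interval 79.6 to 236), 28.1-fold for *dpy-5* (21.6 to 37.2) and 62.7-fold for *dpy-13* (42.3 to 97.1). The log2 stage ratio of *dpy-4*, 6.95 over both wild-type L1 libraries, was 8.02 without replicate 1 and 6.34 without replicate 2. These intervals, like all counting intervals here, cover counting error only, and the adult side has no replicate.

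*rol-6* and *sqt-1* encode collagens best known for mutant forms that twist the cuticle and make the worm roll, and *lon-3* encodes a collagen whose loss lengthens the body. *rol-6* (WBGene00004397, chromosome II, 8733050 to 8734239, plus strand) had 6 and 3 counts in wild-type L1, 2 and 1 in mutant L1, and 969 and 420 in the wild-type and mutant adult. *sqt-1* (WBGene00005016, chromosome II, 11336693 to 11337837, minus strand) had 3 and 4 counts in wild-type L1, 2 and 1 in mutant L1, and 1773 and 788 in the wild-type and mutant adult. *lon-3* (WBGene00003057, chromosome V, 12197437 to 12198645, minus strand) had 4 and 3 counts in wild-type L1, 5 and 0 in mutant L1, and 774 and 348 in the wild-type and mutant adult. In L1 larvae these 3 genes were near the 3-count limit set for a library here, which is 0.247 and 0.267 CPM in the wild-type L1 libraries. The wild-type adult exceeded wild-type L1 larvae 109-fold for *rol-6* (57 to 239), 256-fold for *sqt-1* (124 to 637) and 112-fold for *lon-3* (53.9 to 279).

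The strut collagens *bli-1* and *bli-2* had the highest stage ratios of the 10 in wild type over both L1 libraries. *bli-1* (WBGene00000251, chromosome II, 10708960 to 10712156, plus strand) had 0 counts in both wild-type L1 libraries, 1 and 0 counts in the mutant L1 libraries, 2379 in the wild-type adult and 733 in the mutant adult. Set against the limit of 3 counts in each wild-type L1 library, it was at least 400.4-fold higher in the wild-type adult. *bli-2* (WBGene00000252, chromosome II, 5651394 to 5652434, minus strand) had 5 and 1 counts in wild-type L1, 4 and 5 in mutant L1, 1894 in the wild-type adult and 582 in the mutant adult. Its wild-type adult level was 319-fold above wild-type L1 larvae (146 to 870), an interval that overlaps that of *sqt-1*, and the mutant adult level was 96.8-fold above mutant L1 larvae (50.6 to 213). The log2 stage ratio of *bli-2* in wild type, 8.06, was 9.12 without replicate 1 and 7.45 without replicate 2. The latter is below the 7.98 of *sqt-1* without replicate 2, and in the mutant *bli-2* was below *sqt-1* (393-fold, 134 to 1911). The coding sequence of *bli-1*, at 2844 bp, was the longest of the 10, the shortest being the 852 bp of *dpy-5*. None of the 10 coding sequences overlapped that of another protein-coding gene on either strand.

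*dpy-17* and *sqt-3* ran the other way. Both encode cuticle collagens, and SQT-3 is a known substrate of the astacin protease DPY-31, with DPY-17 needed for its proper deposition. *dpy-17* (WBGene00001076, chromosome III, 5107330 to 5108492, plus strand) had 1461 and 1094 counts in wild-type L1, 988 and 982 in mutant L1, 866 in the wild-type adult and 1662 in the mutant adult. *sqt-3* (WBGene00005018, chromosome V, 12352745 to 12354320, plus strand) had 1658 and 1494 counts in wild-type L1, 1776 and 1772 in mutant L1, 1696 in the wild-type adult and 1261 in the mutant adult. On the 6-library scale *sqt-3* went from 135 ± 2.47 CPM (SD, n = 2) in wild-type L1 to 73.3 CPM in the wild-type adult, and from 159 ± 9.13 CPM in mutant L1 to 84.4 CPM in the mutant adult. Its adult level was 0.543 times the L1 level in wild type (0.512 to 0.577) and 0.532 times in the mutant (0.499 to 0.568). *dpy-17* went from 109 ± 16.2 to 37.4 CPM in wild type, an adult level of 0.342 times the L1 level (0.317 to 0.370), but from 88.2 ± 4.83 to 111 CPM in the mutant, an adult level of 1.26 times the L1 level (1.18 to 1.35). The intervals of the 2 genotypes overlapped for *sqt-3* and lay on opposite sides of 1 for *dpy-17*.

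Counted by a 2-fold rule, 8 of the 10 collagens were higher in the wild-type adult than in wild-type L1 larvae, against 35.5% of all 14521 genes measured. 1 collagen, *dpy-17*, was lower by this rule, against 32.9% of all genes. In the mutant, 8 were at least 2-fold higher in the adult (34.1% of all genes) and 0 were lower (33.2%). The median log2 stage ratio of the 10 was 6.57 in wild type, beside 0.06 over all genes. Scaling by total count instead moved the median over all genes to 0.32 and that of the 10 collagens to 6.81. Of the 6 furrow collagens, all 6 were also at least 2-fold higher in the wild-type adult, with a lower median log2 ratio of 2.57. Their ratios ran from 1.12 for *dpy-3* to 5.02 for *dpy-9*, the latter above the 4.77 of *dpy-5*. The summed level of the furrow collagens in L1 larvae was 17.4 to 23.8 CPM. The 156 col-named collagens were mixed: of 125 measured, 64 passed the rule on the higher and 37 on the lower side. Of the 4 other collagens with a body-shape or blister phenotype, *sqt-2*, *rol-8* and *bli-6*, the last another strut collagen, had at most 8 counts in an L1 library and log2 stage ratios of 6.54, 8.27 and 8.73 in wild type. *ram-2*, named for the shape of male tail rays, stood apart at -4.84.

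Levels of different genes were compared per kilobase of coding sequence. In wild-type L1 larvae *sqt-3* was highest, at 149 ± 2.74 CPM per kb (SD, n = 2), and *dpy-17* followed at 103 ± 15.3 CPM per kb, with no overlap between their libraries. *dpy-5* came next at 2.93 ± 0.588 CPM per kb and its libraries stood above those of every remaining gene. *dpy-13* (1.19 ± 0.400) and *dpy-4* (0.724 ± 0.588) overlapped, and the other 5 genes were all below 0.5 CPM per kb in each wild-type library. In the wild-type adult the order was *dpy-4* (97.5 CPM per kb), *bli-2* (87.7), *dpy-5* (81.8), *sqt-3* (81.1), *sqt-1* (78.8) and *dpy-13* (74.0), then a gap to *rol-6* (40.1), *bli-1* (36.1), *dpy-17* (35.4) and *lon-3* (34.4). The 95% Poisson intervals of neighbours from *bli-2* down to *dpy-13* overlapped, as did those from *rol-6* down to *lon-3*, so the order of neighbours is not resolved. Some genes further apart in these runs did not overlap. *bli-2* (83.8 to 91.7) lay above *sqt-1* (75.2 to 82.6) and *dpy-13* (70.3 to 77.7), and *dpy-5* (77.9 to 85.9) above *dpy-13*. *rol-6* (37.6 to 42.7) lay above *lon-3* (32.0 to 36.9). In the mutant adult *dpy-17* stood first, at 105 CPM per kb (100.3 to 110), followed by *sqt-3* at 93.4 (88.3 to 98.7) and *dpy-4* at 87.3 (82.3 to 92.5). *bli-2* was seventh at 41.7 (38.4 to 45.3) and *bli-1* last at 17.2 (16.0 to 18.5).

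**Figure D2:**
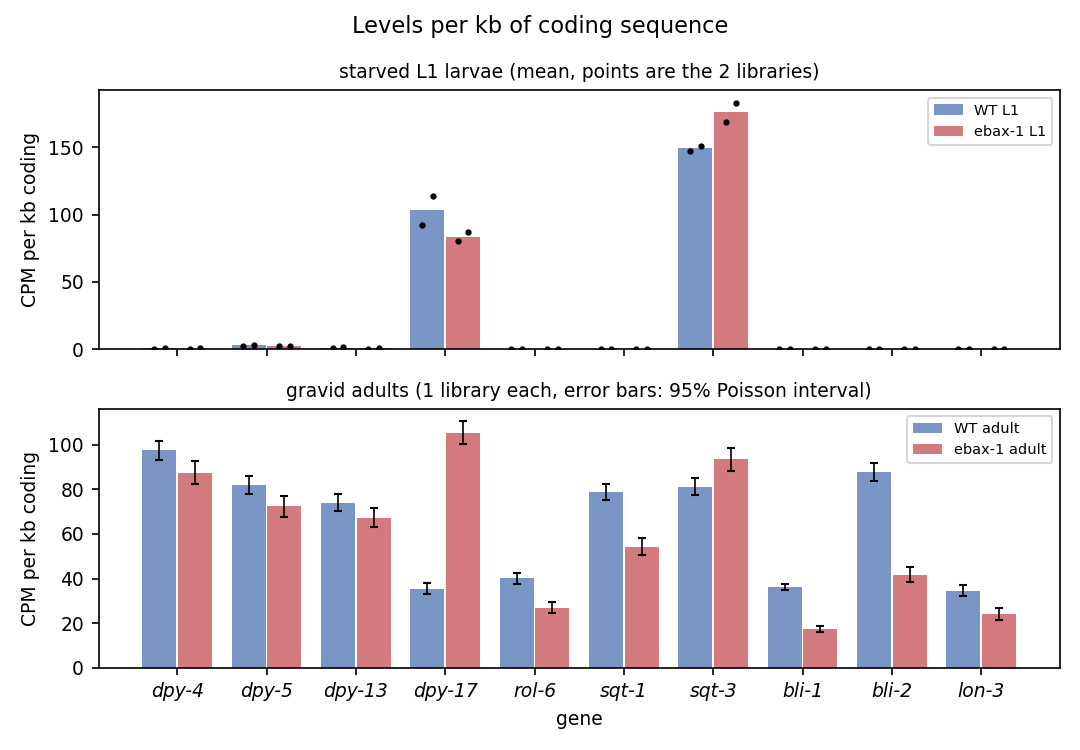
CPM per kilobase of coding sequence for each collagen in L1 larvae (upper panel, bars are means and points the 2 libraries) and in adults (lower panel, 1 library each with 95% Poisson intervals of the count). In L1 larvae *sqt-3* (149 and 176 CPM per kb in wild type and mutant) and *dpy-17* (103 and 83.5) tower over the rest, while in adults all 10 genes lie between 17.2 and 105 CPM per kb.

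The L1 comparison set mutant larvae of strain CZ9907 against wild-type larvae, so strain and allele cannot be told apart in it. Of the 10 collagens, 3 had enough counts to be tested and the other 7 did not pass the filter on low counts. *dpy-17* fell in mutant larvae, and *sqt-3* and *dpy-5* did not pass the test. By the edgeR test 16.6% of all genes were called in either direction. 1 of 3 tested collagens was called lower, where 9.97% of all 13756 genes tested were called lower, and 0 called higher, where 6.59% were. At an unadjusted p under 0.05, 1 was lower and 1 higher, and DESeq2 called 0 in either direction. *dpy-17* stood at 115 and 92.7 CPM in the wild-type libraries and at 80.4 and 86.7 CPM in the mutant libraries on the scale of the 4 L1 libraries. The log2 fold change of *dpy-17* was -0.31 (SE 0.0993, edgeR adjusted p = 0.0342). *sqt-3* stood at 130 and 127 CPM in wild type and at 145 and 157 CPM in the mutant. Its difference on the log2 scale was 0.23 (SE 0.0851, edgeR adjusted p = 0.0700). *dpy-5* stood at 2.04 and 2.71 CPM in wild type and at 1.95 and 1.77 CPM in the mutant, which on the log2 scale differed by -0.34 (SE 0.352, edgeR adjusted p = 0.574). The groups did not overlap for any of the 3 genes, as was so for 56.2% of all genes tested. Beside the maternal markers above, 2 of 4 body wall muscle markers and 1 of 4 intestinal markers fell in mutant larvae, the muscle list summing to 21312 and 24113 CPM in wild type and 16423 and 18630 CPM in the mutant. The part of these lists in the *dpy-17* result was not tested.

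The *dpy-17* call rested on single libraries and on the tool. It was lost without wild-type replicate 1 (log2 fold change -0.15, edgeR adjusted p = 0.564), without mutant replicate 1 (-0.26, edgeR adjusted p = 0.0556), with DESeq2 (-0.31, adjusted p = 0.127) and with total count scaling (-0.15, edgeR adjusted p = 0.274). *sqt-3* was called higher without mutant replicate 1 (0.29, edgeR adjusted p = 0.0171) and with total count scaling (0.39, edgeR adjusted p = 0.00132). Over all alternatives the adjusted p ran from 0.00332 to 0.564 for *dpy-17* and from 0.00132 to 0.373 for *sqt-3*. Under total count scaling, the median log2 difference over all genes tested went from 0.01 to 0.17 and higher calls from 39.8% to 76.3% of all calls. With no filter on low counts all 10 collagens entered the fit and *dpy-17* was still the only call (13.9% of all 18426 genes were called). Among the 7 genes that the filter had left out, the log2 fold changes in that fit ran from -1.46 for *rol-6* to 2.34 for *bli-1*, the latter from 1 count in all, and none was called.

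**Figure D3:**
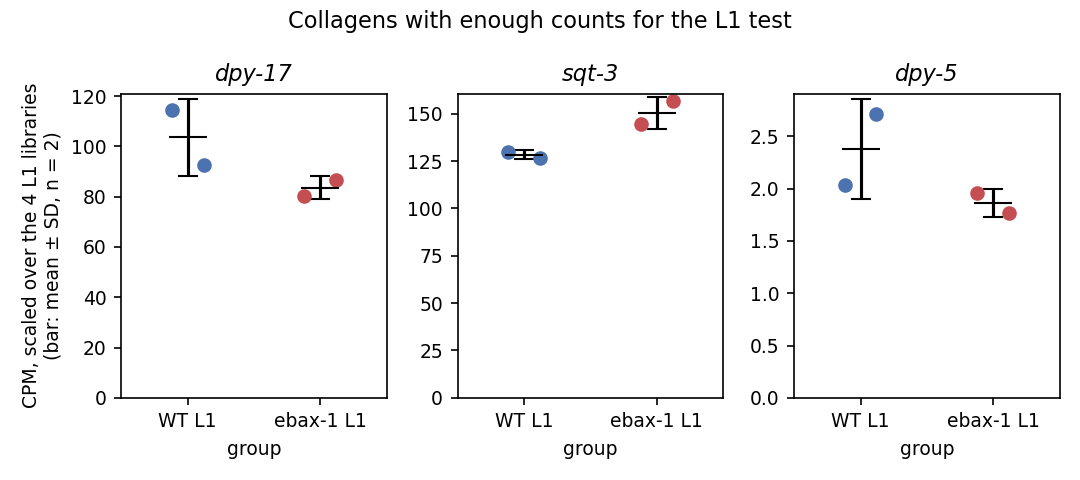
CPM on the scale of the 4 L1 libraries for the 3 collagens tested; points are libraries, bars the mean and SD of 2. *dpy-17* goes from 115 and 92.7 to 80.4 and 86.7 CPM, *sqt-3* from a mean of 128 to 151 CPM and *dpy-5* from 2.38 to 1.86 CPM, and in each the 2 genotypes do not overlap.

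In adults *dpy-17* and *sqt-3* were higher in the mutant and the strut collagens lowest against wild type. *dpy-17* was 3.06 times as high in the mutant (95% exact binomial interval 2.82 to 3.33) and *sqt-3* 1.19 times (1.10 to 1.28), on a scale set by the adult pair. The 8 collagens with few counts in L1 larvae all had a ratio below 1. *dpy-13*, *dpy-4* and *dpy-5* had ratios of 0.938 (0.863 to 1.02), 0.922 (0.857 to 0.993) and 0.910 (0.839 to 0.988). *lon-3*, *sqt-1* and *rol-6* had ratios of 0.717 (0.630 to 0.815), 0.709 (0.651 to 0.772) and 0.691 (0.615 to 0.776). The strut collagens *bli-1* and *bli-2* had ratios of 0.492 (0.452 to 0.534) and 0.490 (0.446 to 0.538). These 3 runs of genes are set out by the ratios themselves. No interval of 1 run overlapped an interval of another, while within each run all intervals overlapped. As the intervals cover counting error only, they do not show that the runs are separate groups. Adults had 1 library of each genotype, so these ratios have no replicate check and no test, and library, strain and allele cannot be told apart.

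By a 2-fold rule, 1 collagen was higher (*dpy-17*) where 3.27% of 13563 adult genes were, and 2 were lower (*bli-1* and *bli-2*) where 2.65% were. The *dpy-17* ratio lay at percentile 99.03 of all adult genes. *bli-1* and *bli-2* lay just past the 2-fold line, at log2 ratios of -1.02 and -1.03, and 332 genes had a lower ratio than *bli-2*. Total count scaling left 1 of these 2 past the line. The 10 collagens had a median log2 ratio of -0.31, beside 0.00 over all genes, of which 50.4% were below 0. The 8 with few counts in L1 larvae had a median of -0.49. Of 123 col-named collagens measured, 37 (30.1%) passed 2-fold on the higher side in the mutant and 24 (19.5%) on the lower side. The furrow collagens had 0 of 6 past 2-fold in either direction, and their ratios ran from 0.752 for *dpy-8* (0.652 to 0.866) to 1.12 for *dpy-7* (0.991 to 1.27). *sqt-2*, *rol-8* and *bli-6* had ratios of 0.674 (0.612 to 0.742), 0.535 (0.485 to 0.589) and 0.749 (0.683 to 0.822). The interval of *rol-8* overlapped those of *bli-1* and *bli-2*, while that of *bli-6*, also a strut collagen, did not. *ram-2*, like *dpy-17* and *sqt-3* a gene abundant in L1 larvae, had a ratio of 1.42 (1.246 to 1.61).

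**Figure D4:**
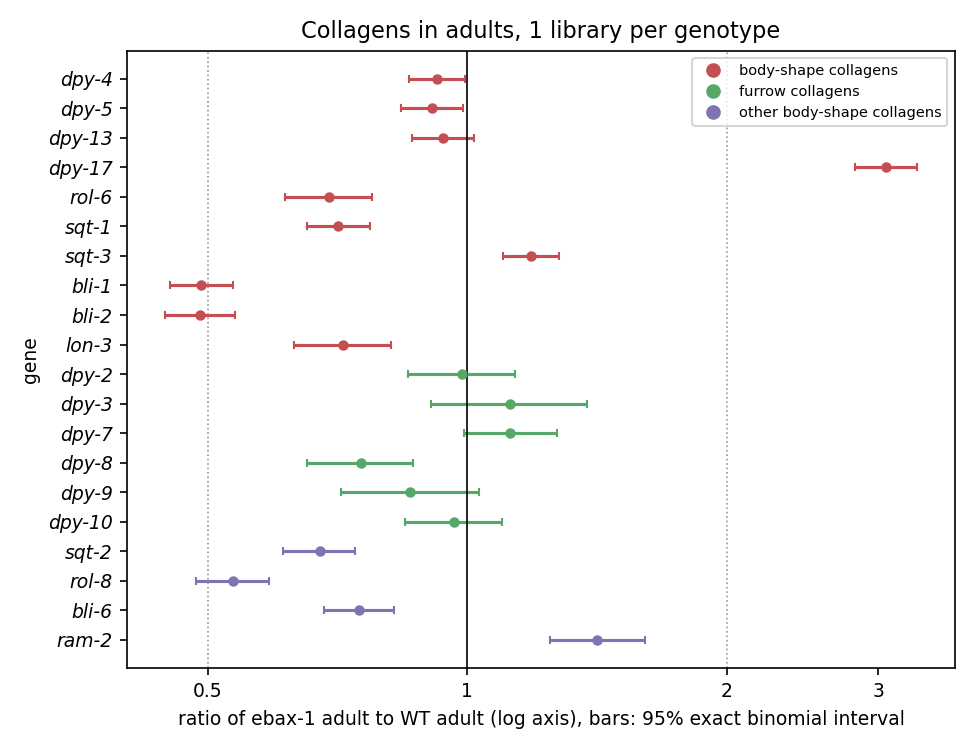
Ratio of the mutant to the wild-type adult library for the 10 collagens, the 6 furrow collagens and 4 other body-shape collagens, on a log axis, with 95% exact binomial intervals of the counts and dotted lines at 2-fold. *dpy-17* stands alone at 3.06, and the furrow collagens lie between 0.752 and 1.12. *bli-1* and *bli-2* lie lowest at 0.49, with intervals that overlap that of *rol-8*, while *bli-6*, also a strut collagen, lies higher.

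Gravid adults carry embryos, whose epidermis makes the first cuticle, and several marker lists moved between the adult libraries. Of 5 genes listed for the embryonic epidermis, 5 were above 0 in the mutant adult, with a median log2 ratio of 0.24. Their sum was 946 CPM in wild type and 1179 CPM in the mutant. These genes do not mark embryos alone: they summed to between 2130 and 2462 CPM in the hatched L1 libraries, with a median log2 stage ratio of -1.45 in wild type. *sma-1*, a spectrin needed for embryonic elongation, had the highest ratio of them, 1.68 (1.61 to 1.75). Of 4 body wall muscle genes, 3 were above 0, with a median of 0.45 and sums of 1935 and 2502 CPM. Of 4 intestinal genes, 3 were below 0, with a median of -0.31 and sums of 579 and 455 CPM, and of 4 neuronal genes, 3 were below 0, with a median of -0.17 and sums of 153 and 141 CPM. The 10 maternal germline and embryo markers had a median of -0.05, with sums of 2823 and 2652 CPM, and the 7 epidermal markers a median of 0.07, with sums of 240 and 243 CPM. Single epidermal markers went both ways, with 4 above 0 and 3 below on the log2 scale. Their ratios ran from 0.675 for *che-14* (0.463 to 0.969) to 1.23 for *pxn-1* (1.12 to 1.34). This list includes *dpy-7*, itself a furrow collagen, and shares *elt-1*, *elt-3* and *lin-26* with the epidermal transcription factors below. The 3 sperm genes measured in adults had a median of -0.56. The part of these lists in the collagen ratios was not tested.

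Of 6 tested genes of collagen folding and secretion, 3 rose in mutant L1 larvae and 0 fell, where 6.59% of all genes tested were called higher and 9.97% lower. *pdi-2*, the protein disulfide isomerase that is the beta subunit of prolyl 4-hydroxylase, rose on the log2 scale by 0.85, with 526 ± 22.1 CPM in wild type and 952 ± 71.2 CPM in the mutant (SD, n = 2, SE of the log2 value 0.0905, edgeR adjusted p = 7.60e-07). Its alpha subunit partner *dpy-18* rose by 0.79 on that scale, with 37.6 ± 7.42 CPM in wild type and 65.0 ± 9.42 CPM in the mutant (SE 0.123, edgeR adjusted p = 9.88e-05), while the other alpha subunit gene, *phy-2*, had a log2 fold change of -0.01 (edgeR adjusted p = 0.975). *pdi-1*, another disulfide isomerase, rose by 0.65, with 185 ± 9.79 and 291 ± 6.63 CPM (edgeR adjusted p = 1.11e-05). These 3 calls held under every alternative run. In adults the ratios were 0.970 for *pdi-2* (0.938 to 1.002), 0.993 for *dpy-18* (0.864 to 1.14) and 1.02 for *pdi-1* (0.975 to 1.06). Whether the L1 and adult ratios differ was not tested.

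Collagen cleavage and cross-linking genes had 0 of 9 called in L1 larvae (0 at an unadjusted p under 0.05 and 0 by DESeq2). The leading members by p were *skpo-2*, a peroxidase gene (log2 fold change -0.46, edgeR adjusted p = 0.203), and *dpy-31*, which encodes the SQT-3 protease (-0.19, edgeR adjusted p = 0.285). *bli-4*, the proprotein convertase gene that also has a blister name, had a log2 fold change of 0.06 (edgeR adjusted p = 0.700). In adults *mlt-7*, a peroxidase of cuticle cross-linking, had the highest ratio of this list, 1.77 (1.58 to 1.97). Furrow collagens had 0 of 6 called (2 at an unadjusted p under 0.05 and 0 by DESeq2), led by *dpy-10* and *dpy-9*. On the log2 scale *dpy-10* differed by -0.49 (edgeR adjusted p = 0.146) and *dpy-9* by 1.32 (SE 0.625, edgeR adjusted p = 0.168). The *dpy-9* value came from 2 and 7 counts in wild type and 10 and 12 in the mutant, and DESeq2 gave that gene no adjusted p. *ram-2* was the only tested gene of the other body-shape collagens, and it fell, with 620 ± 14.9 CPM in wild type, 451 ± 6.71 CPM in the mutant and a log2 difference of -0.46 (edgeR adjusted p = 5.87e-04). Of 77 col-named collagens tested, 15 rose and 20 fell, beside 6.59% and 9.97% of all genes, and the median difference was -0.20 on the log2 scale.

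The DBL-1 pathway, a BMP-type signal that sets body size and acts on cuticle collagen genes, gave 2 falls and 0 rises of 13 genes tested, where 9.97% of all genes were called lower and 6.59% higher (0 rises and 3 falls at an unadjusted p under 0.05, and 0 rises and 1 fall by DESeq2). *adt-2*, a secreted ADAMTS protease needed for normal body length, fell, with 108 ± 2.14 CPM in wild type, 60.9 ± 2.11 CPM in the mutant and a log2 difference of -0.83 (SE 0.0885, edgeR adjusted p = 8.15e-07). Its adult ratio was 0.634 (0.583 to 0.689). *lon-1*, a CAP-domain protein that limits body length, fell, with 7.29 ± 0.116 CPM in wild type, 4.41 ± 1.24 CPM in the mutant and a log2 difference of -0.72 (edgeR adjusted p = 0.0406). The *lon-1* call was lost without wild-type replicate 1 (-0.73, edgeR adjusted p = 0.106), without wild-type replicate 2 (-0.70, edgeR adjusted p = 0.133) and without mutant replicate 2 (-0.46, edgeR adjusted p = 0.268). It was also lost with DESeq2 (-0.72, adjusted p = 0.180) and with total count scaling (-0.55, edgeR adjusted p = 0.104), and was kept without mutant replicate 1 (-1.04, edgeR adjusted p = 0.00514). Epidermal and molting transcription factors had 0 of 10 called (1 at an unadjusted p under 0.05 and 0 by DESeq2), led by *blmp-1* at -0.30 and the GATA factor gene *elt-1* at -0.26. In adults 4 of these 10 factors were above 0 and 6 below, with a median log2 ratio of -0.25. Their adult ratios ran from 0.674 for *lin-29* (0.531 to 0.852), a factor of the larval to adult switch of the epidermis, to 1.46 for the nuclear receptor gene *nhr-25* (0.985 to 2.15).

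Likeness of profile was measured as Pearson's r of log2(CPM + 1) over the 6 libraries against 12010 genes with a mean of at least 50 counts, as a description in which the stage difference dominates. *dpy-17* had the least common profile: only 1 gene, *pqn-22*, exceeded 0.99 (r = 0.995), followed by *pals-37* (0.986) and *ugt-18* (0.978). For *sqt-3*, 136 genes exceeded 0.99, and the closest were *R07E5.4*, *pqn-36* and *C45B2.2*. Each of the other 8 collagens had between 994 and 1735 genes above 0.99, so their nearest genes are a few among many. They were *ints-4*, *sap-140* and *tag-124* for *dpy-4*, *ddo-3*, *ndx-9* and *trd-1* for *dpy-5*, and *chd-1*, *F58H1.6* and *mcd-1* for *dpy-13*. For *rol-6* they were *nas-20*, *frh-1* and *smz-1*, for *sqt-1* *K08F4.5*, *gln-2* and *F58D2.2*, and for *lon-3* *gpr-1*, *algn-6* and *asns-2*. For *bli-1* they were *msp-33*, *T02E1.6* and *spe-8*, and for *bli-2* *rmd-3*, *Y47G6A.15* and *csn-1*.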

How the data were processed

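Raw read counts per gene, not normalized, were deposited by the authors for 6 libraries in 1 table. According to the methods and processing notes, stranded libraries were made from 3 µg (L1 larvae) or 10 µg (adults) of total RNA, STAR 2.7.1a aligned the single-end reads to WBcel235, with only unique alignments kept, and featureCounts assigned them to coding sequence by strand with the WS245 annotation. Reads shared by near-identical collagens and reads in untranslated regions are therefore not counted. The larval libraries are described as independent biological replicates. Replicates differed by more than counting noise (chi-square per degree of freedom 3.98 and 6.42). Gene names, positions and coding lengths came from the Ensembl WBcel235 annotation, which held 20159 of 20447 gene IDs. IDs outside it held 0.180% to 0.214% of counts.

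The genotype comparison in L1 larvae was fitted on their 4 libraries with edgeR 4.0.16 (R 4.3.3): genes kept by filterByExpr at a count minimum of 10, TMM factors, genotype as the only term, quasi-likelihood F-test, two-sided, Benjamini-Hochberg adjustment over all genes tested, threshold 0.05. With 2 libraries a group an exact permutation test cannot reach it. Adult ratios (TMM over the adult pair) and stage ratios (TMM over 6 libraries) have no test. Their log2 values use a prior count of 1 and genes with at least 50 counts in the libraries compared, and their intervals are exact binomial at 95%. Alternatives were DESeq2 1.42.0, median-of-ratios and total count scaling, no count filter, a prior count of 5, the replicate number as a block, and leaving out each L1 library. The L1 step was tested on simulated data. Named genes were the 10 collagens, *ebax-1*, the 3 nearest profiles of each, and, by smallest p, at most 3 called genes of each list, or at most 2 where none was called. Other genes named with values were chosen after their values were seen. The collagens and lists were chosen with earlier results of these data known. The marker *bus-8* was not matched to a row, and protein features were not analysed here.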

Additional observations from a re-analysis of the deposited data

Results flagged for a closer look

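*dpy-17* was flagged because its genotypes went opposite ways at the 2 stages. Both mutant L1 libraries lay below both wild-type L1 libraries (log2 fold change -0.31), while the mutant adult lay above the wild-type adult (log2 ratio 1.61). The difference between stages was not tested, the adult side is 1 library per genotype, and the mutant strains of the 2 stages differ. No group held enough libraries for the search for single outlying samples, and every column of the table was used.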

How the results depend on the processing

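The count of collagens called lower in mutant L1 larvae, 1 as reported, was 0 with DESeq2 and 0 with total count scaling, and 0 to 1 when 1 L1 library was left out. The count called higher, 0 as reported, was 1 with total count scaling and 0 to 1 when 1 library was left out. With total count scaling, 1 rather than 2 collagens passed the 2-fold line on the lower side in adults. The wild-type counts of stage differences among the collagens did not change under total count scaling, median-of-ratios scaling or without either wild-type L1 library. The mutant stage counts were not rerun under alternatives. None of the 3 tested collagens changed direction in L1 larvae in the alternatives run. None of the 10 did so in its adult ratio or wild-type stage ratio. With total count scaling the L1 medians of some lists changed sign, that of the furrow collagens from -0.07 to 0.09. The median of the tested collagens stayed below 0, at -0.31 and -0.15. Over all genes tested, 907 were higher and 1371 lower as reported, 427 and 888 with DESeq2, and 2341 and 728 with total count scaling. Leaving out a library gave 549 to 1003 higher and 856 to 1406 lower. With the replicate number as a block, 1 collagen was lower and 0 higher, and 871 genes were higher and 1378 lower. Same-numbered libraries did not deviate together (correlation -0.01), so the numbers were not taken as pairs. Low counts at the depth of these libraries limit the 7 collagens that the filter left out, and no genotype difference in L1 larvae was detectable for them here.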
